A study of Homo sapiens with 6 samples.

Results

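The colony-stimulating factors and their receptors were examined in 6 tumors of PC-3, a human prostate cancer cell line that grows without androgen, raised in nude mice. The 7 genes were the ligands CSF1, CSF2 and CSF3 and the receptor chains CSF1R, CSF2RA, CSF2RB and CSF3R, taken by gene symbol from the 24000 entries of the deposited table. They made 8 entries, because CSF2RA is listed on both sex chromosomes. The vehicle group was 3 tumors from mice given the carrier alone and the WCE group was 3 tumors from mice given a standardized extract of the herb Wedelia chinensis, which is rich in wedelolactone, luteolin and apigenin. According to the labels the treatment lasted 10 weeks in either group, and all 6 tumors had the same cell line and the same host strain, with no dose stated. Strand-specific libraries of polyadenylated RNA were sequenced, and levels are given as FPKM, the fragments assigned to a gene divided by transcript length and by library size. The host was a nude mouse, which lacks a thymus but keeps macrophages and neutrophils. PC-3 is a single line, so the tumors do not differ by patient.

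Each factor drives a branch of myeloid blood cell production. CSF1, or M-CSF, keeps macrophages alive through CSF1R, a receptor tyrosine kinase. CSF2, or GM-CSF, acts on granulocytes, macrophages and dendritic cells through CSF2RA, the chain that binds the ligand, and CSF2RB, the chain shared with the receptors for interleukins 3 and 5, and signals by JAK2 and STAT5. CSF3, or G-CSF, releases neutrophils from the bone marrow through CSF3R and signals by JAK2 and STAT3. Carcinoma cells can secrete all of these factors, whereas the receptors are carried mainly by myeloid cells. Human CSF2 does not act on mouse cells, while human CSF1 and CSF3 do.

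CSF2 was the most abundant of the members and the one with the largest difference between the groups. Its level was 7.8, 12.9 and 12.2 FPKM in vehicle replicates 1 to 3, and 10.7, 3.34 and 3.96 FPKM in WCE replicates 1 to 3. WCE replicates 2 and 3 lay below every vehicle tumor, whereas WCE replicate 1 lay within the range of the vehicle tumors, so the groups overlapped. CSF1 and CSF3 stood at a mean of 1.66 and 1.51 FPKM over the 6 tumors, and no receptor exceeded 0.145 FPKM in any tumor.

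The table holds no counts, so absolute depth is unknown. Low FPKM values rise in steps of 1 read, and from these steps the depth relative to vehicle replicate 3 was 64.8% and 75.4% in the other vehicle tumors and 25.0%, 85.2% and 80.2% in WCE replicates 1 to 3. Vehicle replicate 3 and WCE replicate 1 carried nearly the same values. Over entries with a mean of at least 50 FPKM, their median absolute log2 difference was 0.0276, against 0.095 to 0.247 for every other pair of tumors, although their labels place them in opposite groups. The differences of the ligands, their ratios and the listed genes with an unadjusted p under 0.05 are therefore also given without that pair. Nothing in the labels says that the tumors of a group came from separate animals, so the p-values measure only the spread between these tumors. In bulk tumor RNA, fewer cells of a type and less RNA per cell cannot be told apart.

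The groups were compared on log2(FPKM + 1) with limma, a linear model that shares the estimate of the spread across entries, over the 13287 entries with a mean of at least 0.5 FPKM. CSF1, CSF2 and CSF3 were among them, 3 of the 8 entries, and the receptors were not. With p-values adjusted over all entries by the Benjamini-Hochberg method and a threshold of 0.05, 0 of these 3 members passed, against 0.00753% of all entries tested, which is 1 entry. At an unadjusted p under 0.05 the count was 1 of 3, which was CSF2, against 7.1% of all entries in either direction and 3.33% lower in WCE.

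CSF2 is listed at chr5:131409485-131411863 in the coordinates of the table. The mean was 11.0 ± 2.76 FPKM in the vehicle group and 6.0 ± 4.08 FPKM in the WCE group (SD, n = 3 each), a ratio of WCE to vehicle of 0.547. On the log2(FPKM + 1) scale the difference was -0.89 with a standard error of 0.37 (limma, unadjusted p = 0.0441, adjusted p = 0.623), which does not pass the adjusted threshold. An exact two-sided permutation test of the 6 tumors gave p = 0.2, where 0.1 is the smallest p that 3 against 3 can give. The relative spread was wider in the WCE group, with a coefficient of variation of 68.1% against 25.2% in the vehicle group, and the highest tumor stood 3.86 times above the lowest. When the nearly identical pair was omitted, the difference was -1.25 with a standard error of 0.24 (limma, unadjusted p = 0.00318, adjusted p = 0.174). Omitting a single tumor gave an unadjusted limma p of 0.0364 for vehicle replicate 1, 0.134 for vehicle replicate 2, 0.12 for vehicle replicate 3, 0.000469 for WCE replicate 1 and 0.139 for each of WCE replicates 2 and 3.

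**Figure D1:**
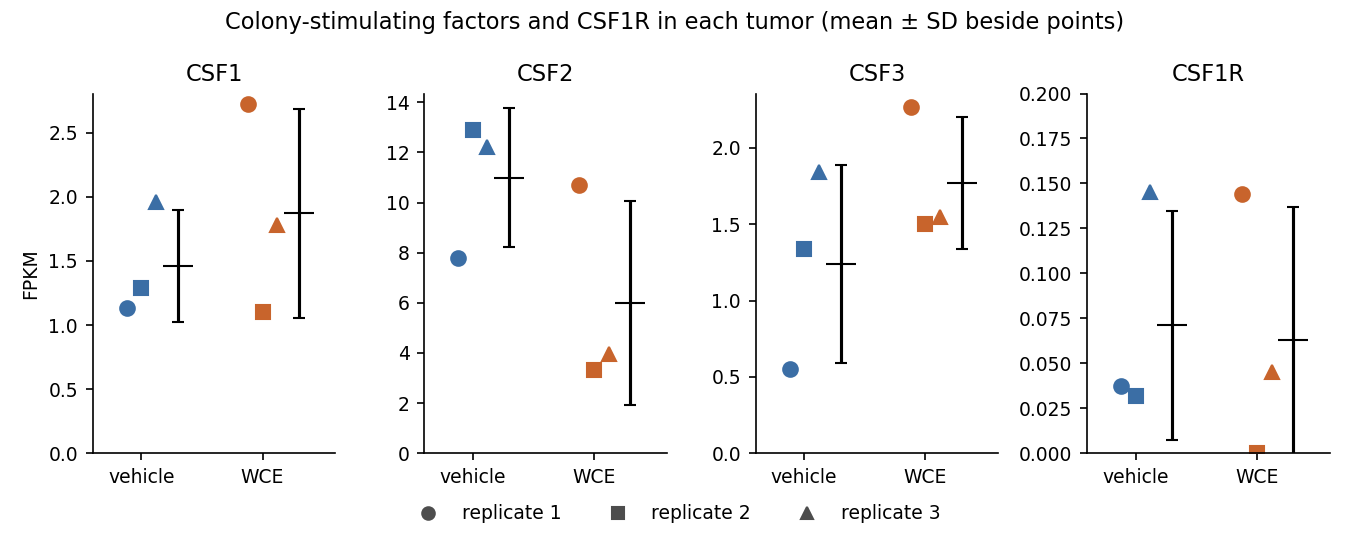
FPKM of CSF1, CSF2, CSF3 and CSF1R in each tumor, with vehicle in blue, WCE in orange, a marker shape for each replicate number and the group mean ± SD beside the points; the bars for CSF1R are cut at 0 and each panel has its own axis. CSF2 sits at 3.34 and 3.96 FPKM in WCE replicates 2 and 3 against 7.8 to 12.9 FPKM in the vehicle tumors. WCE replicate 1 is at 10.7 FPKM, and the groups overlap in every panel.

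CSF1 is listed at chr1:110453233-110473616. It measured 1.13, 1.29 and 1.96 FPKM in the vehicle tumors and 2.72, 1.1 and 1.78 FPKM in the WCE tumors. The highest and the lowest of the 6 values were both in the WCE group, and the groups overlapped. The means were 1.46 ± 0.44 and 1.87 ± 0.814 FPKM (SD, n = 3 each), a log2 difference of 0.20 with a standard error of 0.23 (limma, adjusted p = 0.787; exact permutation p = 0.7). Without vehicle replicate 3 and WCE replicate 1 it was 0.13 with a standard error of 0.19, and without WCE replicate 1 alone it was -0.013 with a standard error of 0.20. All of these values lie within about a standard error of 0.

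CSF3, at chr17:38171614-38174066, measured 0.549, 1.34 and 1.84 FPKM in the vehicle tumors and 2.27, 1.5 and 1.55 FPKM in the WCE tumors. Vehicle replicate 1 was the lowest and WCE replicate 1 the highest, with the other tumors of the groups interleaved. The means were 1.24 ± 0.651 and 1.77 ± 0.431 FPKM (SD, n = 3 each), a log2 difference of 0.34 with a standard error of 0.24 (limma, adjusted p = 0.662; exact permutation p = 0.4). It was 0.41 with a standard error of 0.23 without vehicle replicate 3 and WCE replicate 1, and 0.09 without vehicle replicate 1.

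In order of mean level, CSF2 at 8.48 FPKM stood above 68.8% of all entries of the table, CSF1 above 51.6% and CSF3 above 50.9%. CSF2 exceeded both other ligands in every tumor. CSF1 and CSF3 did not differ beyond their spread, with a ratio of CSF3 to CSF1 between 0.484 and 1.36 over the 6 tumors.

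The balance between the ligands within a tumor does not depend on scaling between tumors. These ratios of FPKM, which are per length, were picked once the tumor values were known. The ratio of CSF2 to CSF1 was 6.87, 10.0 and 6.24 in the vehicle tumors and 3.93, 3.03 and 2.23 in the WCE tumors. Every WCE tumor lay below every vehicle tumor. The gap was narrowest between vehicle replicate 3, at 6.24, and WCE replicate 1, at 3.93, which are the nearly identical pair. Between them CSF1 differed more than CSF2, by factors of 1.39 and 0.875, and WCE replicate 1 had a relative depth of 25.0%. The geometric means were 7.54 and 2.98, a log2 difference of -1.34 (exact permutation p = 0.1, the smallest possible), and -1.67 without vehicle replicate 3 and WCE replicate 1. As background, 2.72% of 13177 entries also had a ratio to CSF1 that was lower in every WCE tumor than in any vehicle tumor.

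The ratio of CSF2 to CSF3 was 14.2, 9.61 and 6.65 in the vehicle tumors and 4.72, 2.23 and 2.55 in the WCE tumors. The groups again did not overlap, and the gap was again narrowest between vehicle replicate 3 and WCE replicate 1. The geometric means were 9.68 and 3.0, a log2 difference of -1.69 (exact permutation p = 0.1), and -2.29 without the nearly identical pair. Here the background was higher, since 9.71% of entries had a ratio to CSF3 that was lower in every WCE tumor. For CSF3 to CSF1 the groups overlapped, with a log2 difference of 0.36 (exact permutation p = 0.6), which was 0.62 without the nearly identical pair, 0.012 without vehicle replicate 1, 0.132 without WCE replicate 2 and 0.565 without vehicle replicate 2.

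The nearly identical pair can also be set side by side. From vehicle replicate 3 to WCE replicate 1, CSF2 differed by a factor of 0.875, CSF1 by 1.39 and CSF3 by 1.23, at the lower depth of the WCE library.

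**Figure D2:**
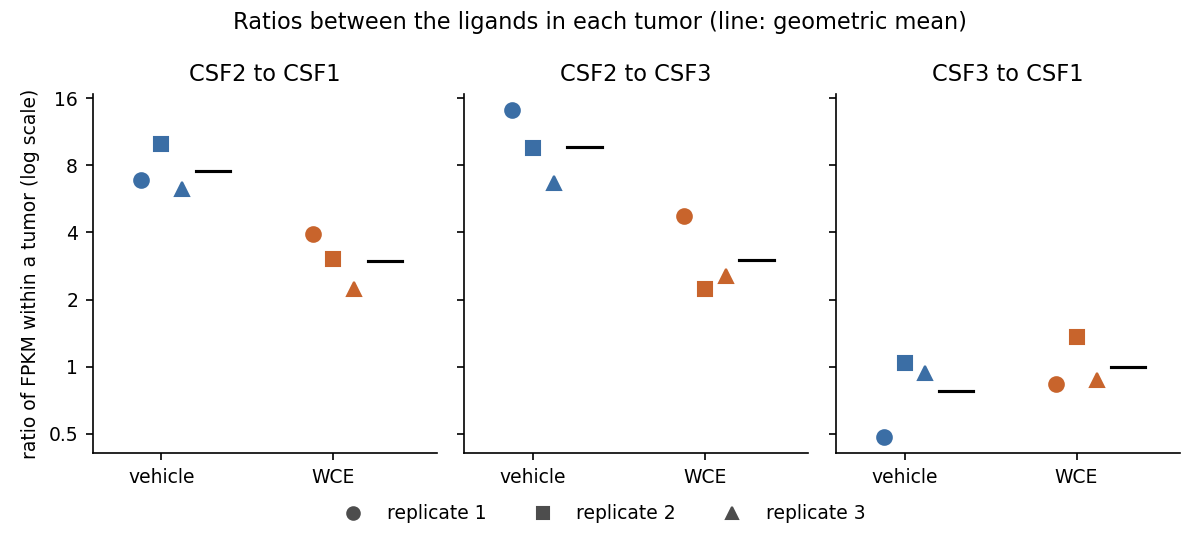
Ratios of FPKM between the ligands within each tumor on a log2-spaced axis, with vehicle in blue, WCE in orange and a line at each group's geometric mean. The ratio of CSF2 to CSF1 lies at 6.24 to 10.0 in the vehicle tumors and 2.23 to 3.93 in the WCE tumors and that of CSF2 to CSF3 at 6.65 to 14.2 and 2.23 to 4.72, whereas CSF3 to CSF1 overlaps.

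The receptors were near or at 0. The entries are human genes, so these values do not give the level in myeloid cells of the mouse host. CSF1R, at chr5:149432854-149492935, measured 0.0372, 0.0319 and 0.145 FPKM in the vehicle tumors and 0.144, 0 and 0.045 FPKM in the WCE tumors. It was highest in the nearly identical vehicle replicate 3 and WCE replicate 1, and the groups overlapped. Multiplied by relative depth, and set against vehicle replicate 1, these levels stood at 1, 1, 6, 1.5, 0 and 1.5, so the values rest on few reads. In a fit without the filter its log2 difference was -0.012 with a standard error of 0.069 (limma, unadjusted p = 0.875), at a level where no difference was detectable at this depth.

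CSF2RB, at chr22:37309675-37336479, was listed at 0 in 5 tumors and at 0.0122 FPKM in WCE replicate 3. CSF3R, at chr1:36931644-36948915, was listed at 0 in all 6 tumors. CSF2RA was listed at 0 in all tumors at both of its loci, chrX:1387693-1428828 and chrY:1337693-1378828. The same held for all 17 gene names that the table lists on both X and Y, a total of 34 entries, among them SLC25A6, a mitochondrial ADP/ATP carrier that most cells express, and IL3RA. A value of 0 at these loci therefore gives no level for CSF2RA.

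The markers of the cells that carry these receptors were examined in the same table. Myeloid cells in these tumors come from the mouse host, whereas the listed entries are human genes. How mouse reads were treated is not given, so a low value does not show that such cells were few. Of 12 macrophage and monocyte genes, CD68 was the one above the filter, at 25.3 to 43.9 FPKM. The others were at 0.666 FPKM or less in every tumor, and TYROBP and MRC1 at 0. The summed level of the list was 25.9 to 41.6 FPKM in the vehicle tumors and 40.9 to 44.9 in the WCE tumors, nearly all of it CD68, which lysosomes of many cell types contain. Of 8 granulocyte genes, S100A9 at 318 to 1370 FPKM and S100A8 at 23.2 to 255 FPKM, which epithelium also expresses, were above the filter and the rest were at 0.284 or less. The sum of that list was 341 to 1560 FPKM in the vehicle tumors and 542 to 1550 FPKM in the WCE tumors.

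Markers of other cell types were read in the same way, with the same limit for cells of the host. The summed level of 6 endothelial genes was 1.25 to 3.43 FPKM in the vehicle tumors and 3.21 to 7.63 in the WCE tumors, with KDR, a receptor for vascular endothelial growth factor, at 0.216, 0.247 and 0.529 FPKM against 0.559, 1.59 and 5.12 (limma, unadjusted p = 0.0345, adjusted p = 0.623), a log2 difference of 1.14 and of 1.69 without the nearly identical pair. PECAM1, the most abundant of the list, was at 0.86, 2.95 and 2.61 FPKM against 2.48, 2.05 and 2.37, a log2 difference of 0.14 (limma, unadjusted p = 0.613), so the higher sums came mostly from KDR. CDH5, VWF, TEK and CLDN5 were at 0.0893 FPKM or less. That of 6 fibroblast genes was 42.1 to 56.4 FPKM in the vehicle tumors and 12.8 to 55.9 in the WCE tumors, the lowest being WCE replicate 2. COL1A1 and COL3A1, the main fibrillar collagens, were the most abundant of them, at 10.4 to 45.7 and 1.81 to 11.7 FPKM, with log2 differences of -0.44 and -0.51 (limma, unadjusted p = 0.41 and 0.353). COL1A2, DCN and PDGFRB were at 0.628 FPKM or less in every tumor, so the sums came mostly from COL1A1 and COL3A1. LUM, which encodes the matrix protein lumican, was 3.15, 1.94 and 0.599 FPKM against 0.67, 0.338 and 0.479 (limma, unadjusted p = 0.0308, adjusted p = 0.623), a log2 difference of -0.85 and of -1.31 without that pair. CD3E, a marker of T lymphocytes, was at 0. The epithelial genes KRT8, KRT18, KRT19 and EPCAM summed to 1140 to 1390 FPKM in the vehicle tumors and 1110 to 1350 in the WCE tumors, with EPCAM at 305, 250 and 185 FPKM against 180, 138 and 123 (limma, unadjusted p = 0.00889, adjusted p = 0.623), a log2 difference of -0.73 and of -1.08 without that pair. The part of these cell types in the CSF2 values was not tested.

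The sequences of the ligand transcripts set CSF2 apart in another way. The 3′ untranslated region of a cytokine mRNA often carries AU-rich elements, in which the pentamer ATTTA is the core that decay proteins bind. In GENCODE 29 (GRCh38) the CSF2 transcript with the longest coding sequence had a 3′ untranslated region of 318 bases with 8 such pentamers and 3 copies of the nonamer TTATTTATT. CSF1 had 4 pentamers in 2154 bases and CSF3 had 7 in 854 bases, both with 0 nonamers. Of 18592 genes with such a region, 7.3% held the nonamer and 14.2% had 8 or more pentamers. The stretch of 30 bases with the most pentamers is shown for each ligand, 5′ to 3′ on the transcript with ATTTA in capitals, because it shows how the elements overlap in CSF2 and stand apart in the others. They lie at chr5:132076072-132076101 for CSF2, chr1:109930911-109930940 for CSF1 and chr17:40016975-40017004 for CSF3, all on the plus strand.
CSF2: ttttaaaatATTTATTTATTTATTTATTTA
CSF1: tttatataaagtcATTTAaatatctATTTA
CSF3: tcccatgtATTTAtctctATTTAatATTTA
The CSF2 stretch holds 5 pentamers that share their end bases, against 2 in CSF1 and 3 in CSF3. The receptor transcripts had between 0 and 2 pentamers in the whole 3′ untranslated region.

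The proteins that bind these elements were all measured. All 10 listed genes were above the filter and 0 had an unadjusted p under 0.05 in limma, where 7.1% of all entries did, too few genes to set the list apart, with a median log2 difference of -0.067, against -0.006 over all entries tested. The most abundant were HNRNPD, at 121 to 158 FPKM, and KHSRP, at 52.2 to 71.7 FPKM, both of which bind AU-rich mRNA. ZFP36, or tristetraprolin, which promotes decay of CSF2 mRNA, had a log2 difference of -0.12 with a standard error of 0.14 (limma, unadjusted p = 0.413).

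Transcription of CSF2 in activated cells is driven by NFκB, NFAT, AP-1, ETS and RUNX factors at its promoter. The RefSeq promoter table (GRCh38.p14) holds promoters for CSF2, CSF1R, CSF2RA and CSF3R. The 250 bases before the start of CSF2, at chr5:132073539-132073788 on the plus strand, are shown because the listed factors are named for this stretch. The capitals mark a match to a frame of the κB site, which is 3 G, 5 bases of any kind and 2 C, on the minus strand at 85 to 76 bases before the start, and the RUNX core TGTGGT on the plus strand at 58 to 53 bases before it.
CSF2 promoter: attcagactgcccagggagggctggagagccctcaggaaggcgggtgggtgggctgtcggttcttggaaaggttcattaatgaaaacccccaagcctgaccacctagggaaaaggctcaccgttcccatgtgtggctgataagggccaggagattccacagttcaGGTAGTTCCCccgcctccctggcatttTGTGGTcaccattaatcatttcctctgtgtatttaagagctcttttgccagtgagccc
Both strands were searched in 35116 promoters of this length. The κB frame was found in 54.4% of them, TGTGGT in 11.0% and GGAA, the core shared by ETS and NFAT sites, in 92.7%, with 7 matches in CSF2, one of which lies inside the κB frame. The AP-1 letters TGANTCA occur in 6.6% of promoters and were not matched in this window. A match is a description of letters and not a site.

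All 10 listed promoter factors were above the filter, with a median log2 difference of 0.094. NFATC2 was the 1 factor of 10 with an unadjusted p under 0.05 in limma, a count near the 7.1% of all entries. It measured 0.916, 0.731 and 1.74 FPKM in the vehicle tumors and 1.51, 3.92 and 3.06 FPKM in the WCE tumors. The tumors with the lowest CSF2, WCE replicates 2 and 3, had the highest NFATC2, and WCE replicate 1 lay within the vehicle range. The log2 difference was 0.82 with a standard error of 0.28 (limma, unadjusted p = 0.0191, adjusted p = 0.623; exact permutation p = 0.2) and 1.29 without the nearly identical pair, and its locus overlaps another listed entry. RELA, a subunit of NFκB, was at 40.3 to 49.9 FPKM and ETS1 at 30.1 to 50.6 FPKM, with log2 differences of 0.15 and 0.23 and unadjusted p-values from limma of 0.171 and 0.178.

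The signaling proteins below the receptors were present, with the exception of the STAT genes that these receptors use. Of 24 listed genes, 19 were above the filter, with 1 higher and 0 lower in WCE at an unadjusted p under 0.05, a share no higher than the 7.1% of all entries, and a median log2 difference of 0.008. That gene was TYK2, a Janus kinase, at 24.1, 23.2 and 31.0 FPKM in the vehicle tumors and 31.8, 32.6 and 32.4 FPKM in the WCE tumors. The groups did not overlap, although vehicle replicate 3 was close to the WCE values, and the log2 difference was 0.31 with a standard error of 0.12 (limma, unadjusted p = 0.038, adjusted p = 0.623; exact permutation p = 0.1) and 0.44 without the nearly identical pair. JAK2, the kinase bound by CSF2RB and CSF3R, was at 6.89 to 8.99 FPKM with a log2 difference of -0.16 and a standard error of 0.10 (limma, unadjusted p = 0.159). GRB2, the adaptor to the RAS pathway, was at 76.8 to 90.7 FPKM, and PTPN11, the phosphatase SHP2, at 42.9 to 60.0 FPKM.

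STAT5A was listed at 0 in every tumor. STAT5B was at 0.144 FPKM in vehicle replicate 1, 0.00931 in vehicle replicate 3 and 0 elsewhere, and STAT3 was at 0.0671 to 0.399 FPKM. These 3 genes lie side by side on chromosome 17, and their neighbors were read after these values had been seen. Leaving out small RNA genes, the run of entries under 0.5 FPKM in all tumors held 12 entries from DHX58 to ATP6V0A1, a span of 421 kb at chr17:40253422-40674597. The highest value among them was 0.399 FPKM, and 6 of them were at 0 in all tumors. They include KAT2A and RAB5C, which most cell types express, at 0 and at no more than 0.122 FPKM. The entry next to ATP6V0A1, NAGLU, was at 7.33 to 8.32 FPKM, and at the other end ZNF385C was at 0.359 to 0.856 FPKM and NKIRAS2 at 13.6 to 16.9 FPKM. PC-3 is known as a line without STAT3. The low values were shared by both groups.

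**Figure D3:**
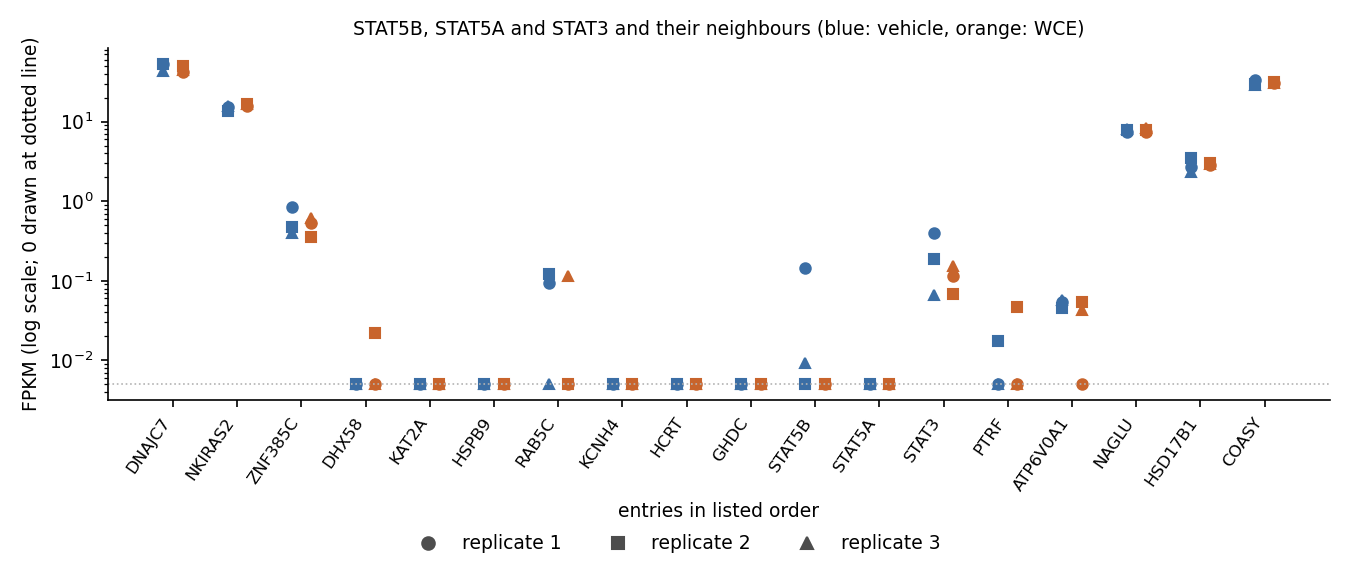
FPKM on a log axis for the 12 entries around STAT5B, STAT5A and STAT3 and the 3 entries on each side, in their listed order, with vehicle in blue, WCE in orange and values of 0 drawn at the dotted line. From DHX58 to ATP6V0A1 every tumor is at 0.399 FPKM or less, and NAGLU on one side is at 7.33 FPKM or more. On the other side ZNF385C is at 0.359 to 0.856 FPKM and NKIRAS2 at 13.6 to 16.9 FPKM.

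Genes that CSF signaling induces in myeloid cells were read as well. Of 8 listed genes, 7 were above the filter and 0 had an unadjusted p under 0.05 in limma, which the 7.1% over all entries does not set apart in so few genes, with a median log2 difference of -0.121. The most abundant were BCL2L1, which protects cells from apoptosis, at 162 to 228 FPKM, and the cell cycle gene CCND1 at 117 to 145 FPKM. SPI1, which encodes the myeloid regulator PU.1, was at 0.576 to 2.3 FPKM.

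Other ligands that act on blood cells were measured beside the members. Of 15 listed genes, 4 were above the filter and 0 had an unadjusted p under 0.05 in limma, against 7.1% of all entries, with a median log2 difference of 0.277. KITLG, or stem cell factor, was at 9.75, 10.9 and 7.55 FPKM in the vehicle tumors and 7.04, 23.4 and 12.0 FPKM in the WCE tumors, with overlap and a log2 difference of 0.41 with a standard error of 0.36 (limma, unadjusted p = 0.297). Its level was therefore of the same order as that of CSF2. SDC1, a proteoglycan of the cell surface, was at 282 to 431 FPKM. IL34, the other ligand of CSF1R, did not exceed 0.148 FPKM. IL3, which lies beside CSF2 and shares CSF2RB as its receptor chain, was listed at 0 in all tumors, as were THPO and IL5RA.

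The neighborhood of CSF2 was read for comparison. Within 500 kb, 14 other entries were listed and 10 tested, and 0 had an unadjusted p under 0.05 in limma, with a median log2 difference of 0.07. RAD50, a DNA repair gene, had the lowest log2 difference, -0.29 with a standard error of 0.13 (limma, unadjusted p = 0.0596), against -0.89 for CSF2. IRF1, an interferon response factor, stood at 0.46 with a standard error of 0.31. The highest value, 3.70, belonged to MIR3936, a microRNA entry at 0 in 3 tumors and at 443, 1800 and 538 FPKM in vehicle replicate 3 and WCE replicates 1 and 3. Around CSF3, 1 of 22 tested entries had an unadjusted p under 0.05, which was RAPGEFL1, a guanine nucleotide exchange factor, with a log2 difference of 0.39 (limma, unadjusted p = 0.0332). Around CSF1, it was 1 of 14, the glutathione transferase GSTM2, with 0.56 (limma, unadjusted p = 0.0472), a gene with close paralogs beside it. Without the nearly identical pair these log2 differences were 0.55 and 0.84. In all 3 neighborhoods the share was near or below the 7.1% of all entries.

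The entries whose pattern over the 6 tumors was most like that of CSF2 were THBS1, FEZ1 and TSPAN2. Likeness was the root mean square difference of log2(FPKM + 1) from each entry's own mean, over 13286 entries with a median of 0.685. THBS1, which encodes the matrix protein thrombospondin 1, had a difference of 0.121, with 178, 218 and 229 FPKM in the vehicle tumors and 232, 79.8 and 89.5 FPKM in the WCE tumors. FEZ1, an adaptor of kinesin transport, had 0.146, with 5.42, 6.36 and 8.17 FPKM against 6.91, 1.72 and 2.2. TSPAN2, a tetraspanin of the cell membrane, had 0.161, with 4.26, 8.82 and 7.85 FPKM against 8.18, 2.67 and 2.67. Because they were picked for this likeness, each shares the pattern of CSF2, with WCE replicates 2 and 3 low and WCE replicate 1 at the vehicle level. Their log2 differences were -0.80, -0.89 and -0.63, with unadjusted p-values from limma of 0.0644, 0.0487 and 0.148. These values are not independent of that choice.

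Across the other settings of the comparison, CSF2 kept its direction in 17 of 17, with log2 differences from -1.339 to -0.623. CSF3 also kept its direction in 17 of 17, from 0.094 to 0.595, and CSF1 in 16 of 17, from -0.013 to 0.4. The adjusted p of CSF2 ranged from 0.11 to 0.964 and in none of these settings passed the threshold.

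**Figure D4:**
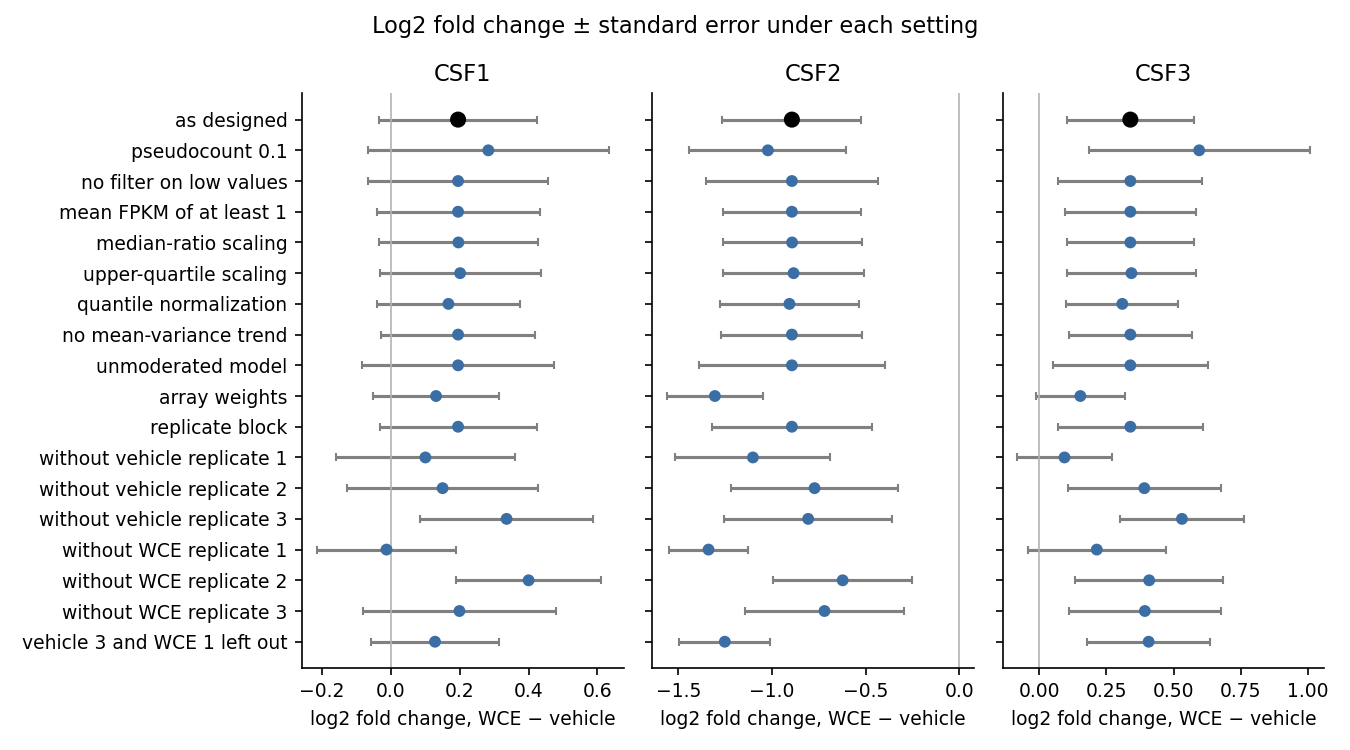
Log2 difference, WCE minus vehicle, with its standard error for CSF1, CSF2 and CSF3 as designed (black) and in each of 17 other settings (blue), named at the left. CSF2 lies below 0 in all of them, farthest at -1.339 without WCE replicate 1, and CSF1 falls to -0.013 in that same setting.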

How the data were processed

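RNA of 6 PC-3 tumors was grouped by the treatment given in the sample labels (3 vehicle, 3 WCE), and the table's columns were matched to tumors by their labelled numbers. The authors deposited FPKM values per gene entry as a Cufflinks gene table, and the submitters' processing notes name TopHat2 2.0.13, Cufflinks, hg19 and mm10 without their roles, so the treatment of mouse reads and any scaling between tumors are not given in the sources used here. Coordinates are as listed, counted from 1. Members, lists and tests were chosen with earlier results of these data known. On the log2(FPKM + 1) scale, entries averaging 0.5 FPKM or more entered a two-sided limma 3.58.1 fit (R 4.3.3, trend on), and single values an exact permutation test. A fold on this scale understates the change of low genes. The limma step was tested on simulated data. From each pathway list, genes with an unadjusted p under 0.05 and the 2 with the highest mean were named, with the 3 entries most like CSF2 and the neighbors within 500 kb under that p. The ratios, the run of entries around the STAT genes, ZFP36, JAK2, SPI1, RAD50, IRF1, MIR3936 and genes named only as markers or at 0 were named after their values were seen. Sequences came from RefSeq and GENCODE 29, and promoters were found for 4 of the 7 members. Other settings were the pseudocount, filter, scaling, trend, moderation, tumor weights, a replicate block and tumors left out. Depth is known only relatively, so no counting intervals are given. Some listed markers are not reported here.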

Additional observations from a re-analysis of the deposited data

How the results depend on the processing

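CSF2 kept its log2 difference of -0.894 but lost the unadjusted threshold with no filter on low values (limma, adjusted p = 0.873), in the unmoderated model (limma coefficients, adjusted p = 0.689) and in the paired fit with the replicate block (limma, adjusted p = 0.621). The count of members under that threshold of 0.05 was 0 in each of these settings. Leaving out 1 tumor at a time gave -1.339 to -0.623 and counts of 0 to 1. CSF1 changed sign to -0.013 without WCE replicate 1, in a range of -0.013 to 0.4 over the tumors left out. Of the genes in the pathway lists, 2 were under that p as designed, 1 with no filter, 1 in the unmoderated model, 8 with tumor weights, 9 without vehicle replicate 3 and WCE replicate 1, and 0 to 7 with 1 tumor left out. Over all entries the count was 944, against 593 in the unmoderated model, 3201 with tumor weights, 2449 without vehicle replicate 3 and WCE replicate 1, and 219 to 2033 with 1 tumor left out. Entries under an adjusted p of 0.05 numbered 1, against 0 with no filter, 0 in the unmoderated model, 5 without that pair and 1 to 7 with 1 tumor left out. The ratio of CSF2 to CSF1 kept its sign, with log2 differences of -1.536 to -1.127 with 1 tumor left out, as did that of CSF2 to CSF3, with -2.02 to -1.416, and that of CSF3 to CSF1, with 0.012 to 0.565; these settings were chosen with the data in view. The labels link tumors across groups by no more than a shared number. The mean correlation of their deviations from the group means was -0.058 for the same number and 0.028 for other numbers. This cannot decide whether tumors were paired. Deviations within a group of 3 sum to 0, and the other numbers include the nearly identical pair, with a correlation of 0.363. Other limits are the 3 tumors in each group, the low relative depth of WCE replicate 1 and the nearly identical pair, whose origin cannot be told from the labels.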
